A study of Homo sapiens with 6 samples.

Results

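The genes that encode the subunits of RNA polymerases I, II and III, with the basal factors that place polymerases I and III on their promoters, were compared between T47D cells treated with GDC-0941 and control cells. Members were the genes whose current symbol, reached through the Entrez identifier, begins with POLR1, POLR2 or POLR3 and a letter, without the copies POLR2J2 to POLR2J4. To these were added the GTF3C genes, GTF3A, BRF1, BRF2, BDP1 and TAF1A to TAF1D. Of 19775 genes measured, 45 matched. Of the 45, 43 are protein-coding subunits or factors, and all counts below are over these 43. The other two, POLR1HASP and GTF3C2-AS1, are noncoding transcripts that share the start of a member's symbol. POLR2M was named only by probe sets that also name other genes, so it has no value.

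T47D cells are a long-cultured line from a human breast carcinoma with luminal features, and GDC-0941 inhibits the class I PI3 kinases, which activate AKT and mTOR downstream of growth factor receptors. The treated group was 3 arrays from T47D cells given GDC-0941 for 6 hours at a labelled dose of 1 mM, a unit that may have lost a micro sign. The control group was 3 arrays from T47D cells whose agent is labelled none, and no label tells whether the drug's solvent was added to them. Nothing says that replicates were separate cultures, and each p-value therefore rests on a spread between arrays that may be technical. Values are log2 RMA signals, which are set relative to the rest of the arrays. In RNA from whole cultures, fewer cells expressing a gene and less of its RNA per cell cannot be told apart. Array medians lay between 7.34 and 7.38, and arrays of a group correlated at r = 0.9970 to 0.9983 across probe sets. All 8 luminal markers were above the median gene level (control means 11.6 to 14.3), and 2 of the 8 measured markers of other cell types were too, COL1A1 at 10.4 and PECAM1 at 9.42 in controls. Of the luminal markers FOXA1 (0.53) and PGR (0.42) were called higher and KRT8 (-0.23) and KRT18 (-0.21) lower. COL1A1 was the 1 marker of other cell types that was called (0.56, adjusted p = 6.53e-05 in limma), while COL3A1 (-0.12) and VIM (-0.17) did not pass. The summed signal (log2) of the luminal list was 16.56 to 16.57 on controls and 16.55 to 16.58 on treated arrays. That of the other list was 11.51 to 11.64 and 11.82 to 11.86, and its part in the results below was not tested.

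Polymerase I makes the large ribosomal RNA precursor, polymerase II makes messenger RNAs, and polymerase III makes transfer RNAs, 5S ribosomal RNA and other short transcripts. Each enzyme has its own catalytic subunits, while a set of small subunits is common to all of them and a pair is shared by I and III. Signalling through PI3 kinase and mTOR is known to raise the activity of polymerases I and III in growing cells, largely through modification of their factors. The arrays read the messenger RNAs of the subunits, not the activity of the enzymes.

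Of the 43 coding members, 22 fell and 2 rose after GDC-0941 at an adjusted p under 0.05 (limma, adjusted over all 19775 genes), and 19 did not pass. Over all genes the same rule called 15.6% lower and 12.1% higher. Members are mostly well expressed genes, 39 of them above the median gene level. Among all genes above that level 25.8% were called lower and 18.8% higher, against 19 lower and 2 higher of these 39 members. The median log2 difference (treated minus control) was -0.17 over the members and -0.02 over all genes. In 28 members all treated arrays lay below all controls and in 5 all lay above, while over all genes these shares were 24.0% and 17.5%, or 41.5% together.

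Most differences were small. POLR3G, POLR3K and POLR2L had the largest falls (2.04-fold, 1.75-fold and 1.41-fold), and POLR1D had the largest rise (1.30-fold). The direction of the small ones depends on the reference. With each array centred on its 18 hybridisation control probe sets (transcripts added before hybridisation), the median of all genes moved from -0.02 to 0.15. The members' median then became -0.004, with 5 called lower and 5 higher, against backgrounds of 4.53% and 28.8%. The share of higher genes among calls moved from 43.7% to 86.4% over all genes and from 8.33% to 50% over the members. In both settings the members' median lay 0.157 below that of all genes, because that centring moves each gene of an array by one amount. The 5 that stayed lower were POLR3G, POLR3K, POLR3E, POLR2I and POLR2L. The 5 higher were POLR1D and TAF1C, which also rose with the deposited normalization, and POLR2A, POLR3C and POLR3GL, which did not pass there. Unless the hybridisation control reference is named, directions are those with the deposited normalization.

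**Figure D1:**
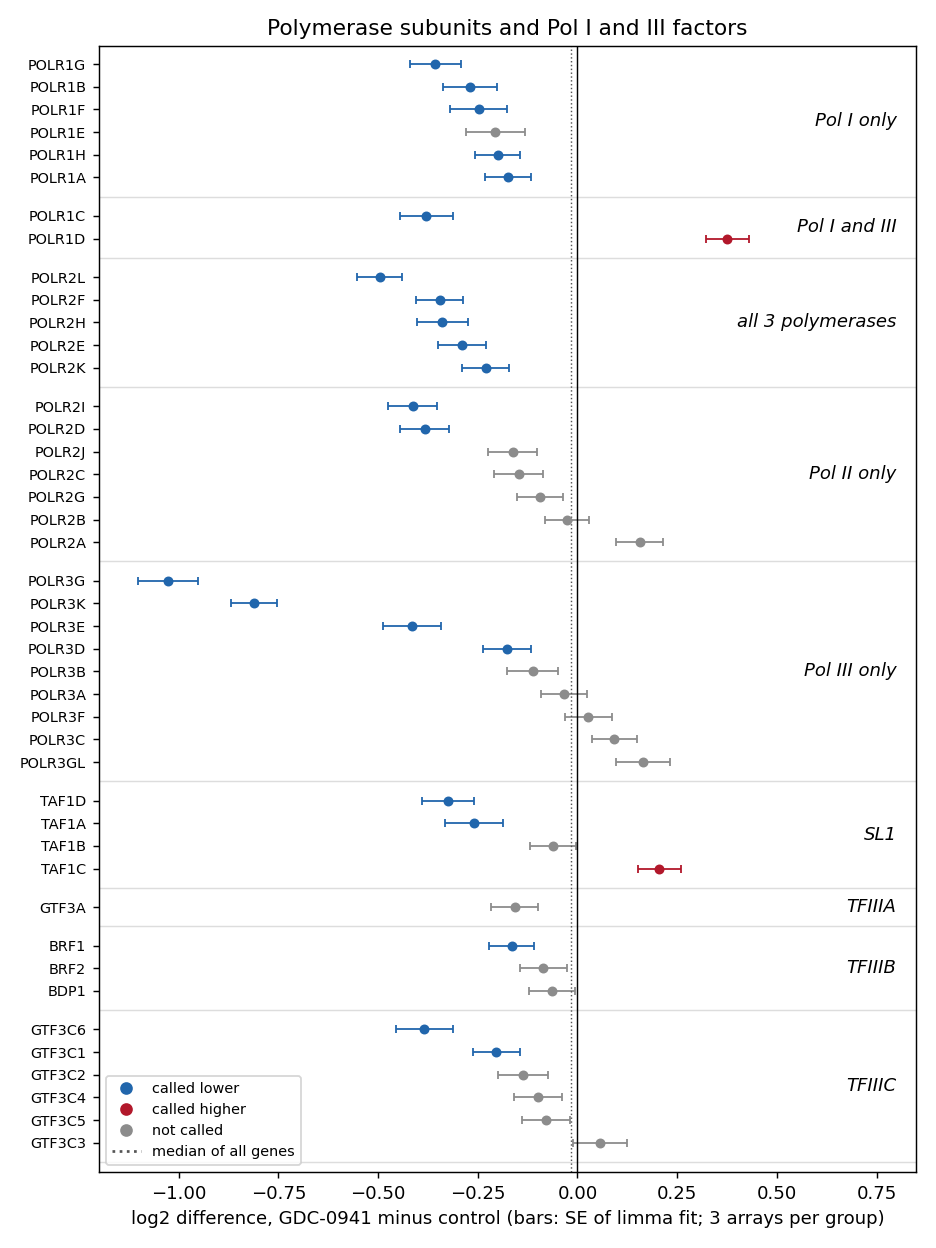
Log2 difference (GDC-0941 minus control, x axis) of each of the 43 coding members, grouped by role; points are limma estimates from 3 arrays per group, bars are their standard errors, and colour marks an adjusted p under 0.05. Blue points (22) lie left of 0, and the red points are POLR1D and TAF1C; centred on hybridisation controls, 5 members are lower and 5 higher.

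Sequence upstream of 4 members is shown because they mark the ends of the range: POLR3K and POLR2L, which fell most among the members listed in the promoter table, and POLR1C and POLR1D, the shared pair that moved in opposite directions. Each run is the 250 bases before the annotated start, 5′ to 3′ on the gene's own strand, from RefSeq (GRCh38.p14). They lie at chr16:53609-53858 (minus strand), chr11:842530-842779 (minus strand), chr6:43516839-43517088 (plus strand) and chr13:27620493-27620742 (plus strand, the first of 2 listed starts). Capitals mark matches, on either strand, to 1 of 6 motifs that were searched: CACGTG (the E-box), GGGCGG (the GC box), GGAAGT (an ETS core), an NRF1 element (the palindrome that begins with GCGCA and ends with its reverse complement), GTAAACA (a forkhead site) and TATAAA (the TATA box).
POLR3K: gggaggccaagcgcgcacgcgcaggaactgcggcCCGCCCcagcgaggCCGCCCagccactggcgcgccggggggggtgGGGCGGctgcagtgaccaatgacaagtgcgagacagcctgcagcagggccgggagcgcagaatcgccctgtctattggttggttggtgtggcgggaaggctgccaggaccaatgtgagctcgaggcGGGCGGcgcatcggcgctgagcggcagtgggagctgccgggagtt
POLR2L: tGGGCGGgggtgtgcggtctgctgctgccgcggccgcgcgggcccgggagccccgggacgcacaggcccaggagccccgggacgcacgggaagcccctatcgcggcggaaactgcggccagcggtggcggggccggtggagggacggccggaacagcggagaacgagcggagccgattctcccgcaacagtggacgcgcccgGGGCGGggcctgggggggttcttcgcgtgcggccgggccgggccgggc
POLR1C: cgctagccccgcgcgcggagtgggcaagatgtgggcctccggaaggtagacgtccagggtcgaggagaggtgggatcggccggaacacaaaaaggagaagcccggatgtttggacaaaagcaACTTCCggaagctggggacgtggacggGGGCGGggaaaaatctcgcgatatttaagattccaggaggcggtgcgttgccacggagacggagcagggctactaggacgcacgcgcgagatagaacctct
POLR1D: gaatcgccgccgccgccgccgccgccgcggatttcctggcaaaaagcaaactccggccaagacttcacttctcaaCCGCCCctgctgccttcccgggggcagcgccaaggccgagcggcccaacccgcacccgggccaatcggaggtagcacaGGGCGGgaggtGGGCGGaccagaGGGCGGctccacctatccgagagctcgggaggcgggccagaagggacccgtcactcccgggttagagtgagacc
The windows of POLR3K and POLR2L held GC boxes and none of the other 5 motifs, as did that of POLR1D, and POLR1C had 1 GC box and 1 ETS core. POLR3K and POLR1D had 4 GC boxes each and POLR2L had 2. The GC box was thus in the window of POLR1D, which rose, and in those of the 3 that fell.

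Of the 43 members, 35 had at least 1 such window. The GC box was in the windows of 21 of these (60%), against 46.2% of the 27305 genes in the table. The E-box was in 6 members (17.1%, against 7.73% of all genes) and the ETS core in 11 (31.4%, against 23%). The NRF1 element was in 5 members, GTF3A, GTF3C1, POLR2F, POLR2H and POLR3B (14.3%, against 1.28% of all genes). Of these 5, POLR2F, POLR2H and GTF3C1 fell, and the others did not pass the test. The forkhead site was in 2 members, GTF3C2 and POLR2C (5.71%, against 3.66% of all genes). The TATA box was in 1, GTF3C3 (2.86%, against 13% of all genes). None of these was called, while 18 of the 35 members with a window fell. The table also holds noncoding genes, and the median GC content was 61.6% in members' windows against 58% in all 35116, so the shares describe these windows and are not a test. A match is not a bound site, and no match says only that these letters are not in the window.

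The 5 subunits common to all 3 polymerases all fell, with a median log2 difference of -0.34 (-0.17 with the hybridisation control reference, where POLR2L was called). POLR2L (RPB10), a small zinc-binding subunit of the assembly platform, read 11.76, 11.67 and 11.77 on the treated arrays and 12.22, 12.21 and 12.26 on the controls. All treated arrays were below all controls, by a log2 difference of -0.50 ± 0.06 (SE, adjusted p = 5.95e-05), and its other probe set fell too (-0.39). POLR2F (RPB6), which joins the assembled core to its clamp, read 9.78, 9.75 and 9.85 in treated cells and 10.17, 10.07 and 10.17 in controls, again with no overlap. Its difference was -0.34 ± 0.06 (SE, adjusted p = 0.000934). Its other probe set, with a control mean of 6.71, differed by -0.002, and with both averaged the difference was -0.17 (adjusted p = 0.0259). POLR2H (RPB8) read 12.01, 11.84 and 11.99 against 12.25, 12.25 and 12.35, a difference of -0.34 ± 0.06 (SE, adjusted p = 0.00173). POLR2H has a single probe set, so the fall has no second reading on the array. POLR2E (RPB5) fell by 0.29, with both its probe sets called lower. POLR2K (RPB12) fell by 0.23 (adjusted p = 0.0106), a call that was lost without control replicate 1 (adjusted p = 0.0566). Its other probe set differed by -0.17 without passing, and the call was lost when that one stood for the gene (adjusted p = 0.0528).

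Of the 6 subunits found only in polymerase I, 5 fell and POLR1E did not pass, with a median of -0.23 (-0.06 with the hybridisation control reference, where none was called). POLR1G, which with POLR1E forms the dimer that aids initiation and elongation, read 8.96, 8.84 and 8.84 on treated arrays and 9.21, 9.17 and 9.33 on controls. The groups did not overlap, and the difference was -0.36 ± 0.06 (SE, adjusted p = 0.00132). Its partner POLR1E differed by -0.21 ± 0.07 (SE, adjusted p = 0.0572), with treated replicate 1 (8.82) inside the range of the controls (8.81 to 8.99). The POLR1E call was gained without treated replicate 1 (adjusted p = 0.0211) or control replicate 1 (adjusted p = 0.0345).

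The catalytic pair of polymerase I fell as well. POLR1B, the second largest subunit, read 9.32, 9.09 and 9.18 against 9.44, 9.44 and 9.51, a difference of -0.27 ± 0.07 (SE, adjusted p = 0.00975). Its 4 probe sets did not move together: 1 was called lower and the others differed by 0.20, -0.11 and 0.10 without passing. With probe sets not marked by the manufacturer as matching several transcripts taken first, POLR1B differed by 0.10 (adjusted p = 0.534). POLR1A, the largest subunit, fell by 0.17 (adjusted p = 0.0417), and its other 2 probe sets fell by 0.37 and 0.27. The call of its chosen probe set was lost without treated replicate 2 or 3 or control replicate 2 or 3 (adjusted p 0.0902 to 0.178) and with the replicate number as a block (adjusted p = 0.0793).

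POLR1F, the stalk subunit that meets the initiation factor RRN3, read 8.34, 8.11 and 8.23 in treated cells and 8.39, 8.49 and 8.55 in controls. The treated arrays lay below the controls with a narrow gap, and the difference was -0.25 ± 0.07 (SE, adjusted p = 0.0217). That call was lost without treated replicate 2 or 3 or control replicate 2 or 3 (adjusted p 0.0575 to 0.0797). Its other probe set differed by -0.02, and with both averaged the difference was -0.13 (adjusted p = 0.141). POLR1H, the zinc ribbon subunit used in transcript cleavage, fell by 0.20 (adjusted p = 0.0184), a call lost without control replicate 1 or 3 (adjusted p = 0.0718 and 0.058). Of its 6 probe sets 2 were called lower, and the others, all dimmer, differed by -0.05 to 0.09 without passing. The call was also lost with unmarked probe sets first (adjusted p = 0.35) and with all probe sets averaged (adjusted p = 0.415).

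POLR1C and POLR1D form the dimer on which polymerases I and III are both assembled, and they moved in opposite directions. POLR1C read 9.52, 9.31 and 9.42 on treated arrays and 9.82, 9.74 and 9.82 on controls, and fell by 0.38 ± 0.07 (SE, adjusted p = 0.00105). POLR1D read 10.15, 10.12 and 10.11 on treated arrays and 9.71, 9.75 and 9.78 on controls, and rose by 0.38 ± 0.05 (SE, adjusted p = 0.000286). Neither gene's groups overlapped. All 3 probe sets of POLR1D were called higher (0.24 to 0.54). The other POLR1C probe set differed by -0.19 (adjusted p = 0.0943 over probe sets), and with the hybridisation control reference POLR1C was not called. In polymerase II the same position is held by POLR2C and POLR2J, which differed by -0.15 and -0.16 (adjusted p = 0.0989 and 0.0734).

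**Figure D2:**
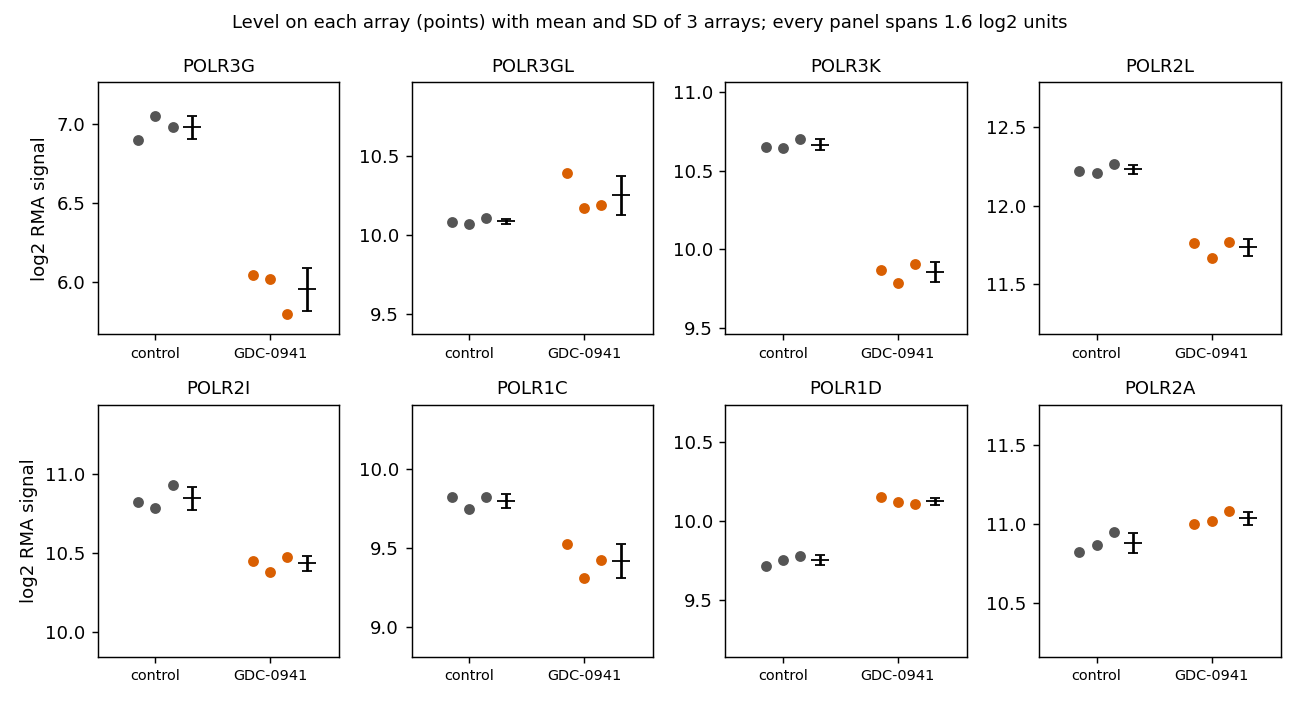
Log2 RMA signal of 8 members on each of the 3 control and 3 GDC-0941 arrays (points, replicates 1 to 3 from left to right), with the mean and SD of the 3; every panel spans the same range of log2 units, and levels are not compared between genes. POLR3G and POLR3K show the widest gaps, POLR1C and POLR1D separate in opposite directions, and POLR2A and POLR3GL show narrow gaps that did not pass the test (adjusted p = 0.0698 and 0.0954).

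Among the 7 subunits of polymerase II alone, 2 fell (28.6%) and none rose, against 25.8% and 18.8% of all genes above the median level. The share lower was thus near that background. The median was -0.15, and 0.02 with the hybridisation control reference. POLR2I (RPB9), the zinc ribbon subunit linked to accuracy of transcription, read 10.45, 10.38 and 10.47 against 10.83, 10.79 and 10.93, and fell by 0.41 ± 0.06 (SE, adjusted p = 0.00032). POLR2I has a single probe set, so this fall has no second reading on the array. POLR2D (RPB4) of the stalk read 9.29, 9.20 and 9.25 against 9.58, 9.58 and 9.72, and fell by 0.38 ± 0.06 (SE, adjusted p = 0.000593). Its other probe set differed by -0.16 without passing, and the call was lost with that probe set (adjusted p = 0.0723). POLR2G (RPB7), the partner of POLR2D in the stalk, differed by -0.09 (adjusted p = 0.273).

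The 2 large catalytic subunits of polymerase II did not pass. POLR2A (RPB1), whose long tail is phosphorylated during transcription, read 11.00, 11.02 and 11.08 on treated arrays and 10.82, 10.87 and 10.95 on controls. Chosen for its per-array values after these were seen, it had all treated arrays above the controls, with a difference of 0.16 ± 0.06 (SE, adjusted p = 0.0698). It passed with quantile normalization again, a variance trend, array weights, genes above the median level, or the hybridisation control reference (0.33, adjusted p = 0.00429). POLR2B (RPB2) differed by -0.03 ± 0.06 (SE, adjusted p = 0.798), with overlapping groups.

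Polymerase III had the widest spread. Of its 9 own subunits 4 fell (44.4%, against 15.6% of all genes and 25.8% of those above the median level) and none rose. Differences ran from -1.03 to 0.16, with a median of -0.11 that became 0.06 with the hybridisation control reference. POLR3G, 1 of 2 alternative versions of a subunit used at initiation and known for high levels in stem cells and tumours, read 6.04, 6.02 and 5.79 on treated arrays and 6.90, 7.06 and 6.98 on controls. The gap between groups was wide, and the difference was -1.03 ± 0.07 (SE, adjusted p = 2.76e-06). Its level is low, at percentile 16.6 of all genes. Its other 2 probe sets were lower still, with control means of 4.91 and 3.90 against a median of 7.36 over all probe sets, and differed by -0.20 and -0.04 without passing.

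POLR3GL, the version found in most differentiated tissues, read 10.39, 10.17 and 10.19 on treated arrays and 10.08, 10.07 and 10.11 on controls. The treated arrays lay above the controls, but the difference of 0.16 ± 0.07 (SE) did not pass (adjusted p = 0.0954). It passed with quantile normalization again (adjusted p = 0.0213), a variance trend, array weights, genes above the median level, or the hybridisation control reference (0.33). Within each array, POLR3G minus POLR3GL was -4.35, -4.15 and -4.40 in treated cells and -3.18, -3.02 and -3.12 in controls. This log2 ratio of signals was lower by 1.19 after treatment, with no overlap (exact permutation test, two-sided, p = 0.1, the smallest that 3 against 3 arrays allow). With all probe sets of each gene averaged, the ratio changed by -0.585 in place of -1.19. The treated mean of POLR3G (5.95) lay below those of all 8 measured markers of other cell types (6.09 and above), and it is not shown to be above background, so the sizes for POLR3G describe signals and may understate its change.

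POLR3K, the zinc ribbon subunit used by polymerase III to cleave its transcript and to end transcription, read 9.87, 9.79 and 9.91 against 10.65, 10.65 and 10.70. It fell by 0.81 ± 0.06 (SE, adjusted p = 2.32e-06), and remained lower with the hybridisation control reference (-0.64). Its other probe set, with a control mean of 5.63, differed by -0.06, and the call was lost when that one stood for the gene (adjusted p = 0.717). POLR3E, which forms a dimer with POLR3D, read 9.91, 9.67 and 9.84 against 10.20, 10.15 and 10.31, with no overlap, and fell by 0.41 ± 0.07 (SE, adjusted p = 0.00109). Its other 3 probe sets, with control means from 7.27 to 7.46, differed by 0.09, -0.18 and -0.15 without passing, and the brightest of these gave POLR3E an adjusted p of 0.459. POLR3D fell by 0.18 (adjusted p = 0.0482), and this call was lost without treated replicate 2 or 3 or control replicate 1 or 2 (adjusted p 0.105 to 0.188) and with the replicate number as a block (adjusted p = 0.069).

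The catalytic subunits POLR3A and POLR3B differed by -0.03 and -0.11 and did not pass (adjusted p = 0.746 and 0.238). POLR3C and POLR3F, which together with POLR3G or POLR3GL form the initiation trimer, differed by 0.09 and 0.03 (adjusted p = 0.273 and 0.794). Of the 4 measured genes of that trimer, POLR3G alone was called with the deposited normalization.

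**Figure D3:**
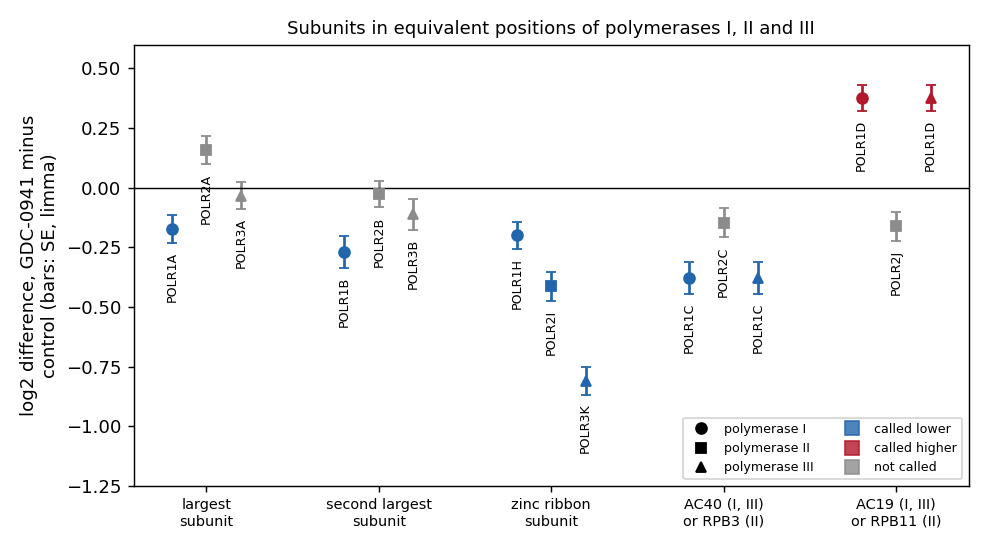
Log2 difference (GDC-0941 minus control, y axis) of subunits that hold equivalent positions in polymerases I (circles), II (squares) and III (triangles); bars are standard errors of limma estimates from 3 arrays per group, and POLR1C and POLR1D appear under both I and III. The zinc ribbon subunits POLR1H, POLR2I and POLR3K were all called lower (-0.20, -0.41 and -0.81), while of the largest subunits only POLR1A was; POLR1H was not called with the hybridisation control reference.

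Set side by side by position, a grouping made after the values were seen, subunits of the different enzymes had the following values. For the largest subunit the log2 differences were -0.17 in polymerase I, 0.16 in II and -0.03 in III. For the second largest subunit they were -0.27, -0.03 and -0.11. The zinc ribbon subunit fell in every enzyme, by 0.20, 0.41 and 0.81. With unmarked probe sets first the calls of POLR1H and POLR3K were lost. Counted with the shared subunits, 11 of 13 measured polymerase I subunits fell (84.6%), 7 of 12 of polymerase II (58.3%) and 10 of 16 of polymerase III (62.5%). These counts overlap, since the 5 common subunits enter all of them. Among all genes above the median level 25.8% were called lower. Differences between the enzymes were not tested, because genes are not replicates of a condition.

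**Figure D4:**
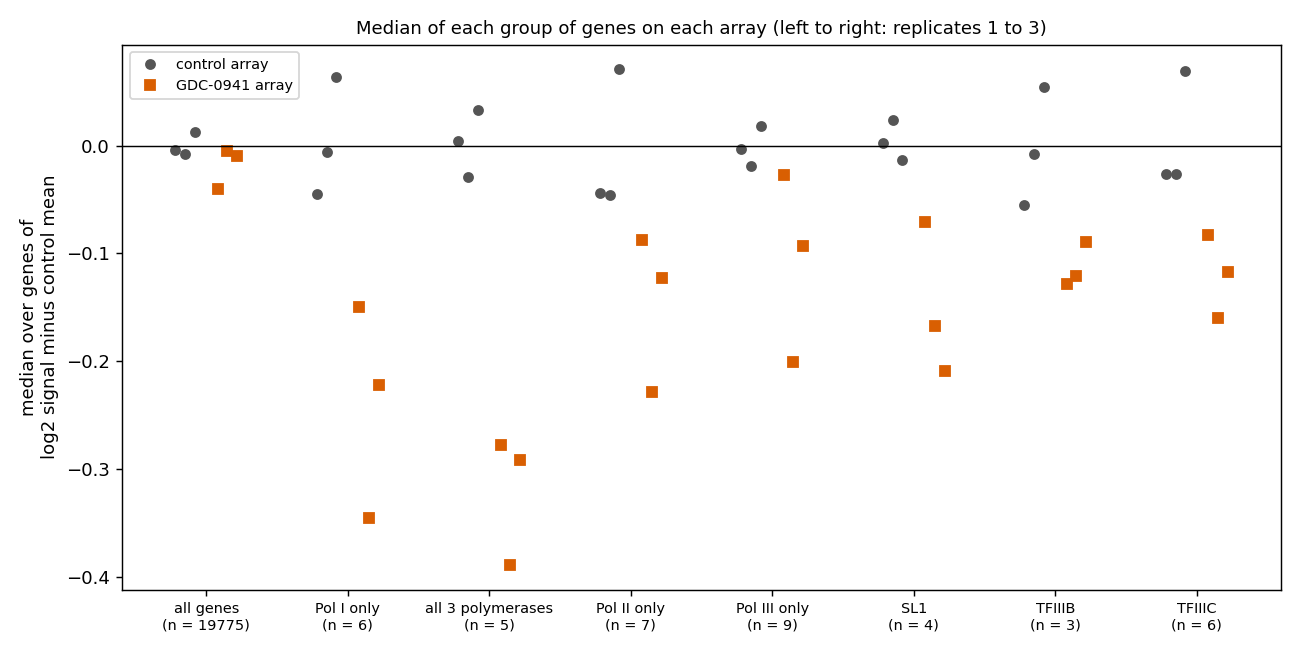
Median over the genes of each group of their log2 signal minus the control mean (y axis) on each of the 3 control arrays (circles) and 3 GDC-0941 arrays (squares); n is the number of genes. For the subunits common to all 3 polymerases the treated arrays lie at -0.28, -0.39 and -0.29, below all controls, and for polymerase III alone treated replicate 1 (-0.03) lies near the lowest control (-0.02); with the hybridisation control reference only the medians of Pol I only and of the common subunits stay negative among these groups.

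The arrays of the treated group were not alike in these medians. Treated replicate 2 was the lowest for polymerase I alone (-0.35, against -0.15 and -0.22) and for polymerase II alone (-0.23, against -0.09 and -0.12). Without it the median of polymerase I alone was -0.19, and 16 members were called lower in place of 22, the same number as without control replicate 2 or control replicate 3. Over all genes 12.9%, 12.8% and 12.5% were called lower in these fits. Of the 24 called members, 15 were called in all 6 fits that left out 1 array. These 15 were POLR1B, POLR1C, POLR1D, POLR1G, POLR2D, POLR2E, POLR2F, POLR2H, POLR2I, POLR2L, POLR3E, POLR3G, POLR3K, TAF1D and GTF3C6.

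SL1, the complex of TBP and TAF1 proteins that recognises the ribosomal gene promoter, was split. TAF1D read 7.97, 8.05 and 7.88 against 8.38, 8.28 and 8.22, with no overlap, and fell by 0.33 ± 0.07 (SE, adjusted p = 0.00286). A single probe set names TAF1D alone. Its brighter probe sets, with mean levels of 10.64 and 10.91, also name other genes and were not used. TAF1A read 7.16, 6.98 and 6.95 against 7.18, 7.35 and 7.33 and fell by 0.26 ± 0.07 (SE, adjusted p = 0.0185), although treated replicate 1 came within a narrow margin of control replicate 1. TAF1C read 9.99, 9.95 and 9.97 against 9.76, 9.73 and 9.80 and rose by 0.21 ± 0.05 (SE, adjusted p = 0.0139). Its other probe set differed by 0.07 without passing, and with both averaged the difference was 0.14 (adjusted p = 0.0486). TAF1B differed by -0.06 (adjusted p = 0.511). The TAF1A call was lost without treated replicate 2 or 3 or control replicate 2 or 3 (adjusted p 0.0552 to 0.0837), and with the replicate number as a block (adjusted p = 0.0514). The TAF1C call was lost without treated replicate 3 or control replicate 1 or 2 (adjusted p 0.052 to 0.0703). The median of the 4 was -0.16, and 0.01 with the hybridisation control reference.

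TFIIIC, a polymerase III factor, binds the internal promoter of transfer RNA genes. Of its 6 subunits 2 fell (33.3%), not far from the 25.8% of all genes above the median level, and none rose. TFIIIC had a median of -0.12 that became 0.05 with the hybridisation control reference. GTF3C6, its smallest subunit, read 10.68, 10.52 and 10.57 against 10.97, 10.86 and 11.10 and fell by 0.38 ± 0.07 (SE, adjusted p = 0.00176). GTF3C1, its largest subunit, read 10.53, 10.44 and 10.58 against 10.71, 10.70 and 10.75 and fell by 0.20 ± 0.06 (SE, adjusted p = 0.0219). The GTF3C1 call was lost without treated replicate 2 or control replicate 1, 2 or 3 (adjusted p 0.0547 to 0.0687). GTF3C2, GTF3C3, GTF3C4 and GTF3C5 differed by -0.14 to 0.06 and did not pass (adjusted p 0.143 to 0.619). GTF3C3 was called higher with unmarked probe sets first or the most variable probe set (adjusted p = 0.0356 and 0.0415), through a dimmer probe set that differed by 0.27. GTF3C2 passed with array weights (adjusted p = 0.0292). The second brightest probe set of GTF3C4 differed by 0.14 without passing.

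TFIIIB brings polymerase III to the start site, with BRF1 used at transfer RNA and 5S genes and BRF2 at genes of the U6 type. BRF1 read 8.80, 8.84 and 8.84 against 8.93, 9.00 and 9.05, and passed narrowly with a difference of -0.16 ± 0.06 (SE, adjusted p = 0.0484). That call was lost in each of the 6 fits that left out 1 array (adjusted p 0.0588 to 0.16) and with the replicate number as a block (adjusted p = 0.0725). BRF2 read 10.30, 10.33 and 10.39 against 10.37, 10.41 and 10.49, with overlap, and differed by -0.09 ± 0.06 (SE, adjusted p = 0.334). The ratio of BRF1 to BRF2 within arrays differed by -0.08 on the log2 scale (exact permutation test, two-sided, p = 0.1, the smallest possible). BDP1, which locks the complex on DNA, differed by -0.06 (adjusted p = 0.493). GTF3A, the factor that recognises the 5S gene, read 11.58, 11.43 and 11.54 against 11.68, 11.65 and 11.70. Its difference of -0.16 ± 0.06 (SE) did not pass (adjusted p = 0.069), although it did without treated replicate 1 (adjusted p = 0.0407). It also passed with quantile normalization again, a variance trend, array weights, genes above the median level or the most variable probe set (adjusted p 0.0115 to 0.0246). Its second brightest probe set was called lower (-0.24), while the dimmest differed by 0.09 without passing.

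**Figure D5:**
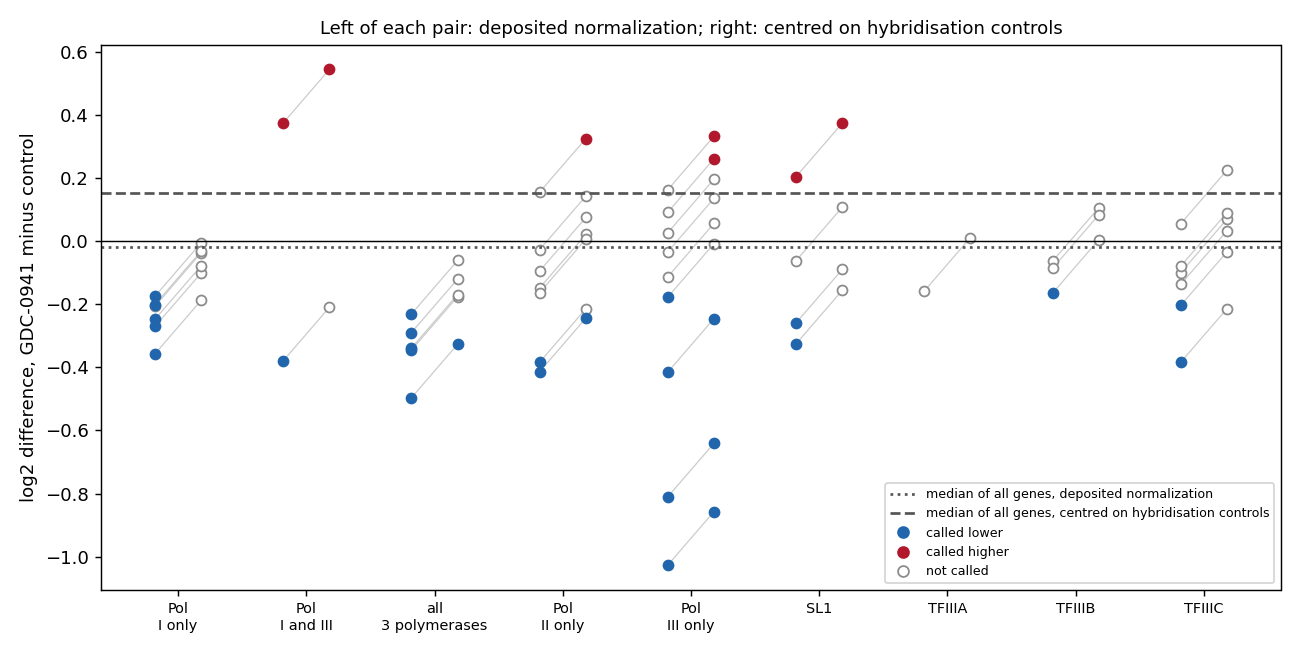
Log2 difference (GDC-0941 minus control, y axis) of each coding member by role, with the deposited normalization (left of each pair) and with arrays centred on 18 hybridisation control probe sets (right); filled points passed an adjusted p under 0.05, and horizontal lines give the medians of all genes (-0.02 and 0.15). Members called lower went from 22 to 5 and members called higher from 2 to 5.

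Regulators and partners of these enzymes were described from lists, to be read against the 15.6% of all genes called lower and 12.1% called higher. Most listed genes were above the median gene level, where these shares were 25.8% and 18.8%. With the hybridisation control reference the shares over all genes were 4.53% lower and 28.8% higher. MAF1, the repressor of polymerase III that mTOR keeps inactive by phosphorylation, read 11.23, 11.19 and 11.31 against 11.08, 11.04 and 11.21, with overlap, and its difference of 0.13 did not pass (adjusted p = 0.159). RRN3, which couples polymerase I to growth signals, differed by -0.02 (adjusted p = 0.883), and UBTF, the factor bound along active ribosomal genes, by -0.12 (adjusted p = 0.156). Of 8 polymerase I cofactors 4 fell and none rose (median -0.20, and -0.03 with the hybridisation control reference, where 1 was lower and 1 higher), led by the RNA helicase DDX21 (-0.53) and NOL11 (-0.32). Of 12 measured polymerase III and small nuclear RNA gene cofactors 6 fell and 3 rose (median -0.17, and -0.001 with that reference, where 1 was lower and 4 higher). ZNF143, an activator of small nuclear RNA genes, fell by 0.59, and SNAPC3 of the complex that binds those promoters rose by 0.42.

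Of 12 measured genes for assembly of the polymerases 7 fell and none rose (median -0.20, and -0.03 with that reference, where 2 were lower). Without treated replicate 3, control replicate 2 or control replicate 3, 4 were lower. The prefoldin subunit PFDN2 fell by 0.66 and RUVBL1, an ATPase of the assembly machinery, by 0.47. Of 27 measured general factors of polymerase II 6 fell and 5 rose (median -0.04, and 0.13 with that reference, where none was lower and 10 were higher), shares near those of all genes above the median level (25.8% and 18.8%). Without treated replicate 2 the counts were 4 lower and 9 higher, and without treated replicate 3 or control replicate 3 they were 4 and 5. GTF2H1 of TFIIH rose by 0.47 and GTF2A2 of TFIIA fell by 0.36. Of 14 measured subunits of TFIID 3 fell and 1 rose (median -0.01, and 0.16 with that reference, where none was lower and 5 were higher), also near the background. TAF1 was higher by 0.45 and TAF10 lower by 0.30. Without treated replicate 2 the counts were 1 lower and 2 higher, and without control replicate 3 they were 1 and 1. Of 9 genes of mitochondrial transcription 2 fell, MTERF3 by 0.56 and the mitochondrial polymerase POLRMT by 0.23 (median -0.03, and 0.14 with that reference, where 1 was lower and 2 higher). Without treated replicate 2 or 3 or control replicate 1 or 2, 1 was lower.

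Different probe sets of one gene bear on how firmly each value stands. The 43 coding members had 100 probe sets, of which 26 were called lower and 4 higher when all 54613 probe sets were tested together, against 9.89% and 8.88% of all probe sets. No member had probe sets called in opposite directions. Of the 17 called members with several probe sets, POLR1A, POLR1D, POLR1H, POLR2E and POLR2L had a further probe set called the same way, and 12 did not. The called members POLR1G, POLR2H, POLR2I, POLR3D, TAF1A, TAF1D and GTF3C6 have a single probe set naming them alone. The probe set rules therefore left their values unchanged. The chosen probe sets of POLR1H, POLR2J, GTF3A and GTF3C5 are marked by the manufacturer as able to match other transcripts. POLR2J has close copies, so its value may include theirs.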

How the data were processed

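T47D RNA was measured on 6 oligonucleotide arrays, 3 treated and 3 control. The authors deposited log2 signals for 54675 probe sets, made with RMA per the submitters' processing notes (version and chip definition: not given in the sources used here). The range of values shows the log2 scale. Of 54613 probe sets that are not manufacturer's controls, 41091 name 1 gene, 1801 name several, and the rest were not named here. Symbols were updated through Entrez identifiers (41037 of 41091) with RefSeq's GRCh38.p14 table. Each gene took its brightest probe set over the 6 arrays among those naming it alone (19775 genes), with no filter on dim genes. RMA values carry no detection call.

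The 2 groups were fitted in limma 3.58.1 under R 4.3.3 (lmFit and eBayes, two-sided, Benjamini-Hochberg over all genes), after a check on simulated data. The number of arrays limits the precision. Ratios within arrays were compared by exact permutation. Within each role, up to 3 called members with the largest change were described in full, or, in a role without calls, its member of smallest p, with POLR3GL and BRF2 as partners. From each list the 2 called genes with the largest change were named, with MAF1, RRN3 and UBTF. POLR2A and POLR1E were added after their values were seen. Members and lists were chosen with earlier results of these data known. The labels number replicates 1 to 3 in both groups without saying that a number marks a shared day. Deviations of same-numbered arrays correlated at -0.35, 0.19 and -0.02, and those of unlike-numbered arrays at -0.41 to 0.39. No pairing was used, and these values do not settle whether a number marks a pair. Alternative settings were the replicate number as a block, each array left out, 3 normalizations, 2 variance models, a level filter, 3 probe set rules and a stricter threshold. Figures used matplotlib 3.10.9.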

Additional observations from a re-analysis of the deposited data

How the results depend on the processing

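The direction of small differences depends on the reference and on the probe set, and 3 arrays per group limit what can be called. Over the alternatives, the 22 members given array by array had 349 values, of which 290 kept their direction and side of the threshold, 42 kept the direction and lost the call, 11 gained it and 6 turned. Members called lower and higher numbered 22 and 2. They numbered 5 and 5 with arrays centred on hybridisation controls (4.53% and 28.8% of all genes). They were 13 and 3 with unmarked probe sets first (13.8% and 10.8%), and 14 and 1 at an adjusted p under 0.01 (10.5% and 8.18%). With quantile normalization again they were 26 and 4 (16.9% and 14.5%), and with a variance trend 26 and 4 (17.2% and 13.4%). Among genes above the median level they were 23 and 4 of 39 members (31.4% and 23.2% of those genes). Array weights, whose iteration stopped before it converged, gave 28 and 5 (26.2% and 21.4%). Leaving out single arrays gave 16 to 23 lower and 1 to 2 higher (12.5% to 16.1% and 9.36% to 12.4% of all genes). With the hybridisation control reference the medians were -0.057 for polymerase I alone, -0.169 for the common subunits, 0.022 for polymerase II alone, 0.057 for polymerase III alone, 0.168 for POLR1C and POLR1D, 0.01 for SL1, 0.012 for TFIIIA, 0.084 for TFIIIB and 0.052 for TFIIIC, and BRF1 differed by 0.005, BRF2 by 0.084 and GTF3A by 0.012. Those shifts follow from adding one amount per array. The median of the common subunits was -0.28 with array weights, and -0.359 to -0.288 leaving out single arrays. That of polymerase III alone was -0.033 with unmarked probe sets first and -0.038 with the most variable probe set. Without single arrays the medians ranged from -0.284 to -0.185 for polymerase I alone, -0.178 to -0.105 for II and -0.155 to -0.06 for III. With unmarked probe sets first, POLR1B differed by 0.102, POLR3E by 0.087 and GTF3A (TFIIIA) by 0.086. For POLR1C and POLR1D the median was 0.049 over all probe sets and 0.078 with the most variable one. For SL1 it was 0.205 among genes above the median level, where TAF1C alone remained. With all probe sets averaged, POLR3G minus POLR3GL changed by -0.585 and BRF1 minus BRF2 by -0.043. Leaving out single arrays gave -1.266 to -1.141 and -0.089 to -0.061. Except where stated, the cause was not tested.

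The labels do not say that the replicate numbers pair the arrays. With the replicate number as a block, 18 members were called lower and 2 higher (14.1% and 10.9% of all genes). The calls of POLR1A, POLR3D, TAF1A and BRF1 were lost, and no other was.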

Other observations

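Some members start close to a neighbouring gene on the other strand. In RefSeq (GRCh38.p14), 20 members had a gene starting head to head within 1000 bases, and 16 such neighbours were measured. Member and neighbour were both called in 7 pairs, in the same direction in 4 and in opposite directions in 3. Over all genes 27.8% were called in either direction. How many of all genes have such a neighbour, and how often both are called, was not counted, so these counts describe the pairs only. POLR1D and LNX2, whose starts lie 214 bases apart, rose by 0.38 and 0.39. POLR3K and SNRNP25, a protein of the minor spliceosome, fell by 0.81 and 0.36 (220 bases apart). POLR2L and TSPAN4 fell by 0.50 and 0.31, and BRF1 and BTBD6 by 0.16 and 0.29. The other three pairs moved apart: TAF1D fell while C11orf54 rose (0.96), POLR1G fell while PPP1R13L rose (0.20), and TAF1A fell while TAF1A-AS1 rose (0.31). The pairs were examined after the members' values were seen, and no test of shared change was made.

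Of the noncoding transcripts, POLR1HASP read 6.46, 6.50 and 6.46 on treated arrays and 6.17, 6.24 and 6.34 on controls, and rose by 0.22 ± 0.06 (SE, adjusted p = 0.0148 in limma), at a low level (percentile 15.2 of all genes). Its other probe sets, dimmer still, differed the other way, by -0.17 and -0.12, without passing. GTF3C2-AS1 differed by -0.02 ± 0.11 (SE, adjusted p = 0.933).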
